A study of Mus musculus with 6 samples.

Results

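The endoplasmic reticulum (ER) chaperone and secretion genes examined here are 35 genes chosen by symbol, and all 35 were found among the 21686 genes of the deposited table. They were measured by RNA-seq in MC3T3-E1 Subclone 14 cells, a clonal mouse line of osteoblast precursors, so that every library comes from 1 line grown in culture. The control group received 100 µL of PBS, the dexamethasone group received 10 µM of this synthetic glucocorticoid, and the dexamethasone + EPC-EVs group received the same dose together with 100 µg of EPC-EVs. EPC-EVs are extracellular vesicles from cultured endothelial progenitor cells of mouse bone marrow. Each group held 2 libraries taken at 72 hours, and no group received EPC-EVs without dexamethasone. The design text of the series gives another cell type, time and number of groups, and the labels of the samples were followed here. The comparisons therefore ask what the steroid changed in the cells, and what changed when vesicles were added on top of it.

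The 6 libraries held between 5146760 and 13182014 counts on genes. The dexamethasone + EPC-EVs libraries were the deepest, with 12864009 and 13182014 counts, against at most 6583735 in the other 4. CPM below are counts scaled to a common library size after TMM normalization over the 6 libraries, and a gene listed without a count could hold up to 3 counts in a library (0.236 to 0.597 CPM, by counting error alone). Mitochondrially encoded genes took 0.465% and 0.727% of the counts in the dexamethasone + EPC-EVs libraries and between 5.55% and 8.62% in the other 4, and their part in the results was not tested. Leaving these genes out before normalization gave the same calls for all 35 members in dexamethasone + EPC-EVs against dexamethasone. That fit removes only their own rows, so it does not test what else goes with the lower share. Depth and this share both divide the libraries as the vesicles do, so the 3 cannot be told apart.

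Proteins bound for the cell surface or the matrix enter the ER through the Sec61 channel, lose their signal peptide, gain sugars and are folded by chaperones and disulfide isomerases. Molecules that do not fold are drawn back to the cytosol for degradation, and folded ones leave in coated vesicles. When unfolded protein accumulates, the membrane sensors Atf6, Ern1 (IRE1) and Eif2ak3 (PERK) start the unfolded protein response, which raises many of the chaperones. Osteoblasts depend on this system because they secrete large amounts of type I collagen, and Creb3l1 (OASIS) and Creb3l2 are transcription factors of the ER membrane linked to collagen output and export.

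The ER stress element is the promoter motif through which Atf6 and Xbp1 act on chaperone genes. It is shown here because it links the members by sequence and not by these counts. Promoters of 250 bases before to 50 bases after the gene start were taken from RefSeq (GRCm38.p6), and 27 of the 35 members had one. The element, CCAAT followed by 9 free bases and CCACG, was searched on both strands. It was found in 8 of the 27 (29.6%), against 37 of 27025 genes in the same table (0.137%). It was first defined on promoters of such chaperones, so its presence among them was known. The windows below give the coding strand 5′ to 3′, with the element in capitals. Where the element lies on the other strand it reads CGTGG, 9 bases, ATTGG.
Hspa5, chr2:34772015-34772053, plus strand: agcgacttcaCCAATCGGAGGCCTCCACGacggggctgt
Calr, chr8:84847065-84847103, minus strand: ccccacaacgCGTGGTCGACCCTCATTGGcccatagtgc
Hsp90b1, chr10:86705523-86705666, minus strand: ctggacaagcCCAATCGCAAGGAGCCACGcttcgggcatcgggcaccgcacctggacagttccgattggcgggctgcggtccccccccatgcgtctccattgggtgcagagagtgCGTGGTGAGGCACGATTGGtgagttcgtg
Canx, chr11:50325790-50325828, minus strand: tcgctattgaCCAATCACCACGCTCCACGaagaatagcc
Pdia6, chr12:17266481-17266519, plus strand: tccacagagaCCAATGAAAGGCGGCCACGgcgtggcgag
Dnajc3, chr14:118937817-118937855, plus strand: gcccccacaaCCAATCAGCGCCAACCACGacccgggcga
Creld2, chr15:88819510-88819548, plus strand: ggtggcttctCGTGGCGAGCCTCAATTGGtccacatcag
Syvn1, chr19:6046522-6046560, plus strand: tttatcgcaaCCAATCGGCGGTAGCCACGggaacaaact

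The Hsp90b1 promoter was the 1 member promoter with 2 copies, on opposite strands. Of the parts of the element, CCACG alone was held by 77.8% of the member promoters, 67.3% of 104 promoters of other ER pathway genes and 35.5% of all promoters, and CCAAT by 85.2%, 49.0% and 41.1%. The full element was held by 1.92% of those other pathway promoters. Both overlap the full element. The unfolded protein response element TGACGTGG was found in the Sec24d promoter only among the members (3.7%), in 8.65% of the other pathway promoters and in 0.714% of all promoters. A match is a run of letters in this window and does not show that a factor was bound.

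Read per length, the folding genes were the most abundant members in each group. In control cells Calr led at 533 ± 24.3 FPKM (the count scaled by gene length and library size, mean ± SD of 2 libraries), followed by Hsp90b1 at 434 ± 49.7 FPKM and P4hb at 345 ± 21.4 FPKM. Pdia3 came next at 263 ± 17.1 FPKM, and then Pdia4 at 177 ± 23.7 FPKM and Canx at 171 ± 6.04 FPKM, which did not differ beyond their spread. The same 7 genes, with Hspa5 the seventh, led in all 3 groups, but their order changed. In dexamethasone + EPC-EVs P4hb was first at 329 ± 3.42 FPKM and Calr second at 281 ± 25.2 FPKM. Pdia3 at 129 ± 11.3, Hsp90b1 at 129 ± 48.1, Canx at 122 ± 1.91 and Pdia4 at 119 ± 14.1 FPKM then lay within their spread. The lowest members in control were Sec61b at 2.54 ± 1.86, Sdf2l1 at 2.76 ± 1.93 and Derl2 at 2.8 ± 0.515 FPKM. By dexamethasone + EPC-EVs, Sec61b stood at rank 18 of the 35, Herpud1 had moved from rank 30 in control to 11, and Derl1 from 29 to 13.

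**Figure D1:**
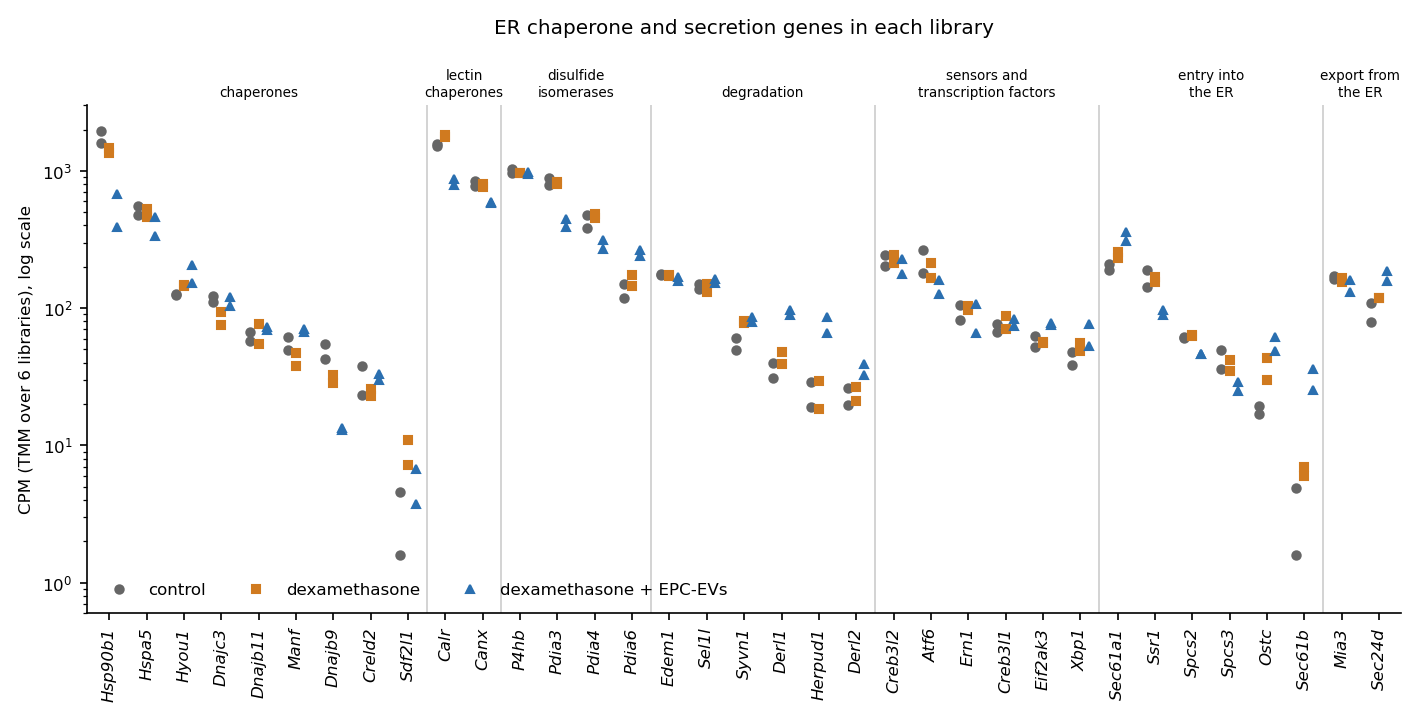
Level of each of the 35 members in each library, in CPM on a log scale, grouped by role. Each point is 1 library, with circles for control, squares for dexamethasone and triangles for dexamethasone + EPC-EVs. The triangles of Hsp90b1, Calr, Pdia3 and Dnajb9 lie below the other points, and those of Sec61b, Herpud1 and Derl1 above them.

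Dexamethasone alone left no member past the threshold. By the quasi-likelihood test of edgeR, with Benjamini-Hochberg adjusted p-values over the 12879 genes tested, 0 of 35 members had an adjusted p under 0.05, and DESeq2 and limma also called 0. Over all genes the test called 0.0155% higher and 0.0388% lower. At an unadjusted p under 0.05 there were 6 of the 35 members, where 10.9% of all genes tested passed the same threshold. The libraries of the groups did not overlap for 10 members that were higher with dexamethasone and 4 that were lower, where 22.8% and 21.2% of all genes tested behaved in this way.

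The 6 members with an unadjusted p under 0.05 are given by their values. Ostc, a subunit of the oligosaccharyltransferase that adds sugars to entering proteins, stood at 19.4 and 16.9 CPM in control and 43.5 and 29.7 CPM with dexamethasone (log2 fold change 1.0, SE 0.306, adjusted p = 0.33). Dnajb9 (ERdj4), a J-domain partner of the chaperone BiP, stood at 42.8 and 54.5 CPM in control and at 32.8 and 28.3 CPM with dexamethasone (log2 fold change -0.68, SE 0.254, adjusted p = 0.393). Hsp90b1 (GRP94), the HSP90 chaperone of the ER, stood at 1604 and 1938 CPM against 1346 and 1455 CPM (log2 fold change -0.35, SE 0.144, adjusted p = 0.422). In all 3 genes the libraries of the groups did not overlap. The other 3 were Syvn1 (HRD1), a ubiquitin ligase of ER degradation, at a log2 fold change of 0.52, Dnajc3, a further BiP partner, at -0.47, and Sdf2l1, a small cofactor of BiP complexes, at 1.53. Sdf2l1 was low throughout, with 4.56 and 1.59 CPM in control and 10.9 and 7.21 CPM with dexamethasone.

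The count depended on 1 control library. Without control replicate 1, 8 members were called. These were Sdf2l1, Syvn1, Ostc and Sec24d higher and Hsp90b1, Dnajb9, Dnajc3 and Atf6 lower, and 2200 of all genes were called against 7 with both libraries. That fit takes the remaining control library to vary as the dexamethasone libraries do.

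Adding EPC-EVs to dexamethasone lowered some members and raised others. Of the 7 most abundant folding genes, Calr, Hsp90b1, Pdia3, Pdia4 and Canx fell and P4hb and Hspa5 were not called. The Canx call was lost in 4 of 14 alternative fits, and its sign changed in 1 of them. Herpud1 and Derl1, 2 genes of ER degradation, and the small channel subunit Sec61b rose. In the quasi-likelihood test of edgeR 16 of the 35 members were called, of which 7 were higher and 9 lower. The 7 are 20.0% of the members, beside 20.9% of the 13556 genes tested, and the 9 are 25.7% beside 18.9%, so the counts lie near the background and say little of the members as a list. Their median log2 fold change was -0.05, where the median of all genes was 0.01. At an unadjusted p under 0.05 with a log2 fold change beyond 1.5 in either direction, 2 members passed, Herpud1 and Sec61b, where 14.2% of all genes did.

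The general chaperones gave 2 falls and 1 rise among 9 genes. Hsp90b1 stood at 1346 and 1455 CPM with dexamethasone and at 389 and 678 CPM with EPC-EVs added. Both vesicle libraries lay far below the others, though they also differed from each other. Its log2 fold change was -1.44 (SE 0.228, adjusted p = 0.00138). Dnajb9 stood at 32.8 and 28.3 CPM against 12.9 and 13.5 CPM, without overlap, a log2 fold change of -1.25 (SE 0.253, adjusted p = 0.00223). With a smooth trend on GC content and transcript length taken out of each library, Dnajb9 was at -0.58 and was not called. Manf, a secreted factor that stays with BiP in the ER, went the other way. It stood at 38.0 and 47.0 CPM with dexamethasone and 67.4 and 71.0 CPM with EPC-EVs, a log2 fold change of 0.66 (SE 0.186, adjusted p = 0.0154). Without dexamethasone replicate 1 the Manf call was lost, at an adjusted p of 0.11, and likewise by limma on log2(FPKM + 1) (0.0526).

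Hspa5 encodes BiP, the master chaperone whose level is the usual readout of the unfolded protein response. It stood at 477 and 553 CPM in control, 461 and 532 CPM with dexamethasone, and 336 and 464 CPM with EPC-EVs added. The highest vesicle library overlapped the lowest dexamethasone one, and the log2 fold change of -0.36 (SE 0.156) missed the threshold at an adjusted p of 0.0906. With the replicate number as a block Hspa5 was called lower. Without dexamethasone + EPC-EVs replicate 2 Hspa5 was called lower, at -0.59 (adjusted p = 0.00016), and without replicate 1 of that group it stood at -0.13 (adjusted p = 0.455). Dnajc3 also missed it, at 93.2 and 75.8 CPM against 103 and 121 CPM (log2 fold change 0.36, adjusted p = 0.101). The remaining 4 chaperones were not called. Hyou1, the large HSP70 relative GRP170, stood between 124 and 206 CPM over the 6 libraries, Dnajb11 (ERdj3) between 55.2 and 76.7 CPM, the stress-responsive Creld2 between 23.0 and 37.8 CPM and Sdf2l1 between 1.59 and 10.9 CPM.

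Calreticulin and calnexin, the lectins that hold glycoproteins while they fold, both fell as counted. Calr, the soluble one, stood at 1772 and 1811 CPM with dexamethasone and 878 and 785 CPM with EPC-EVs. Control libraries held 1580 and 1521 CPM, so the vesicle libraries lay below both other groups. Its log2 fold change of -1.15 (SE 0.113) had an adjusted p of 1.77e-05, the smallest of any member. Canx, the membrane-bound one, stood at 761 and 797 CPM against 589 and 585 CPM, a smaller difference (log2 fold change -0.45, SE 0.111, adjusted p = 0.00705). The Canx call was lost without dexamethasone replicate 1 (adjusted p = 0.0684) and without dexamethasone replicate 2 (0.102), and by limma (0.055). With the trend on GC content and transcript length taken out, the log2 fold change of Canx was 0.04 and it was not called. A pseudogene named Calr-ps is annotated, and how reads shared with it were counted is not given in the sources used here.

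The 4 disulfide isomerases went 3 ways. Pdia3 (ERp57), which works on glycoproteins held by the lectins, stood at 800 and 831 CPM against 387 and 445 CPM, a log2 fold change of -1.02 (SE 0.12, adjusted p = 6.64e-05). Pdia4 (ERp72) stood at 456 and 489 CPM against 316 and 271 CPM (log2 fold change -0.73, SE 0.127, adjusted p = 0.000872). Pdia6 (P5) rose, from 173 and 144 CPM to 265 and 240 CPM (log2 fold change 0.62, SE 0.141, adjusted p = 0.00456), a call lost without dexamethasone replicate 2 (adjusted p = 0.0926) and by limma (0.0617). In none of the 3 did the libraries of the groups overlap. P4hb, which is protein disulfide isomerase itself and the beta subunit of the prolyl 4-hydroxylase that hydroxylates collagen, lay in a narrow range as counted. It stood at 1029 and 968 CPM in control, 971 and 966 CPM with dexamethasone and 953 and 982 CPM with EPC-EVs, and was not called.

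Among the 6 genes of ER degradation 2 rose and none fell. Herpud1, a membrane protein that gathers the retrotranslocation complex, stood at 18.5 and 29.4 CPM with dexamethasone and 66.3 and 86.7 CPM with EPC-EVs. Control held 29.0 and 19.1 CPM, so the vesicle libraries stood apart from the other 4. The log2 fold change was 1.63 (SE 0.247, adjusted p = 0.000356). Derl1, a channel component of the same route, stood at 39.5 and 47.9 CPM against 89.1 and 96.6 CPM, without overlap (log2 fold change 1.04, SE 0.176, adjusted p = 0.000713). Its relative Derl2 stood at 26.6 and 21.1 CPM against 32.6 and 39.2 CPM, at an adjusted p of 0.0856 and a log2 fold change of 0.54. Sel1l, the adaptor of Syvn1, lay between 131 and 164 CPM in the 6 libraries, Edem1, which trims sugars on doomed glycoproteins, between 158 and 177 CPM, and Syvn1 at 80.5 and 78.5 CPM against 85.5 and 79.1 CPM.

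Of the sensors and their transcription factors 1 was called. Atf6, which is cut in the Golgi to release a transcription factor, was the 1 of 6. It stood at 166 and 213 CPM with dexamethasone and 126 and 160 CPM with EPC-EVs, and its log2 fold change of -0.45 (SE 0.166) had an adjusted p of 0.0491, just inside the threshold. It was lost in 6 of 14 alternative fits, among them the removal of dexamethasone replicate 1 (0.0712), dexamethasone replicate 2 (0.397) or dexamethasone + EPC-EVs replicate 1 (0.192). Ern1 stood at 97.5 and 104 CPM against 65.4 and 107 CPM, so 1 vesicle library was low and the other was not (log2 fold change -0.27, SE 0.21, adjusted p = 0.34). Xbp1, whose mRNA Ern1 splices, stood at 55.6 and 48.7 CPM against 76.5 and 53.0 CPM (log2 fold change 0.27, SE 0.208, adjusted p = 0.34). These counts are per gene and do not show splicing.

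Eif2ak3 stood at 57.1 and 55.9 CPM with dexamethasone and 77.5 and 75.4 CPM with EPC-EVs, and the libraries did not overlap. Its log2 fold change of 0.39 (SE 0.164) had an adjusted p of 0.0786. Creb3l1 stood at 87.4 and 70.5 CPM against 83.9 and 73.7 CPM (log2 fold change -0.05, SE 0.17, adjusted p = 0.844). Creb3l2 lay between 178 and 245 CPM over the 6 libraries and was not called.

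Of the genes of entry into the ER 2 of 6 rose and 2 fell. Sec61b, the beta subunit of the translocation channel, had 48 and 41 counts with dexamethasone and 453 and 322 counts with EPC-EVs. In CPM these were 6.99 and 6.04 against 35.9 and 25.3, and control held 4.89 and 1.59 CPM. The log2 fold change of 2.18 (SE 0.309, adjusted p = 0.000226) was the largest of the members in either direction, on a gene with few counts in 4 libraries. Sec61a1, the pore-forming subunit, stood at 231 and 254 CPM against 361 and 308 CPM (log2 fold change 0.42, SE 0.133, adjusted p = 0.0266). The Sec61a1 call was lost in 6 of 14 alternative fits, among them the removal of dexamethasone replicate 1 (adjusted p = 0.191), dexamethasone replicate 2 (0.106) or dexamethasone + EPC-EVs replicate 1 (0.0712), and its log2 fold change was 0.01 (adjusted p = 0.946) with the trend on GC content and length taken out. The second alpha subunit gene, Sec61a2, lay at 50.1 and 60.7 CPM against 46.1 and 59.3 CPM and was not called.

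Ssr1, the alpha subunit of the translocon-associated TRAP complex, fell from 155 and 170 CPM to 97.4 and 89.3 CPM (log2 fold change -0.85, SE 0.141, adjusted p = 0.000671). With the trend on GC content and length taken out, Ssr1 was at -0.39 and was not called. Spcs2, a subunit of the signal peptidase, stood at 64.1 and 62.4 CPM against 46.2 and 46.6 CPM (log2 fold change -0.49, SE 0.175, adjusted p = 0.042). This call was lost in 9 of 14 alternative fits, among them DESeq2 (adjusted p = 0.069), no filter, and the removal of any 1 of the 4 libraries (adjusted p from 0.0986 to 0.151). Its partner Spcs3 lay at 34.8 and 42.0 CPM against 29.2 and 25.0 CPM, with an adjusted p of 0.0685 and a log2 fold change of -0.55. Ostc stood at 43.5 and 29.7 CPM against 61.9 and 48.4 CPM, without overlap, at an adjusted p of 0.0817 (log2 fold change 0.54). It was called higher in 4 of 14 alternative fits, among them the one with the replicate number as a block. The signal peptidase subunit Spcs1, from the wider lists, stood at 39.7 and 43.3 CPM against 53.9 and 53.5 CPM, without overlap, and was not called (log2 fold change 0.33, adjusted p = 0.188).

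Export from the ER is represented by 2 genes. Sec24d, a cargo adaptor of the COPII coat needed for collagen export, rose from 118 and 119 CPM to 188 and 157 CPM (log2 fold change 0.50, SE 0.143, adjusted p = 0.0165). The Sec24d call was lost in 6 of 14 alternative fits, among them the removal of dexamethasone replicate 1 (adjusted p = 0.102), dexamethasone replicate 2 (0.113) or dexamethasone + EPC-EVs replicate 1 (0.0645). Mia3 (TANGO1), which loads collagen at ER exit sites, lay at 165 and 156 CPM against 131 and 160 CPM and was not called.

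The sums over roles rested on a few genes. The 15 chaperones, lectins and disulfide isomerases together held 7215 and 7761 CPM in control, 7163 and 7409 CPM with dexamethasone, and 4558 and 4968 CPM with EPC-EVs added. The 6 degradation genes held 467 and 503 CPM with dexamethasone and 594 and 624 CPM with EPC-EVs. Without the 2 called genes, Herpud1 and Derl1, the other 4 summed to 409 and 426 CPM and to 438 and 440 CPM. Over all 35 members the mean sum fell by 2377 CPM. In this sum Calr fell by 961 CPM, Hsp90b1 fell by 867 CPM and Pdia3 fell by 399.6 CPM. Without these 3 genes the members summed to 5207 and 5388 CPM with dexamethasone and to 5056 and 5240 CPM with EPC-EVs, which overlap. Nearly all of the difference in the sum thus came from these 3 genes. In bulk RNA such as this, fewer cells of a type and less RNA per cell cannot be told apart.

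**Figure D2:**
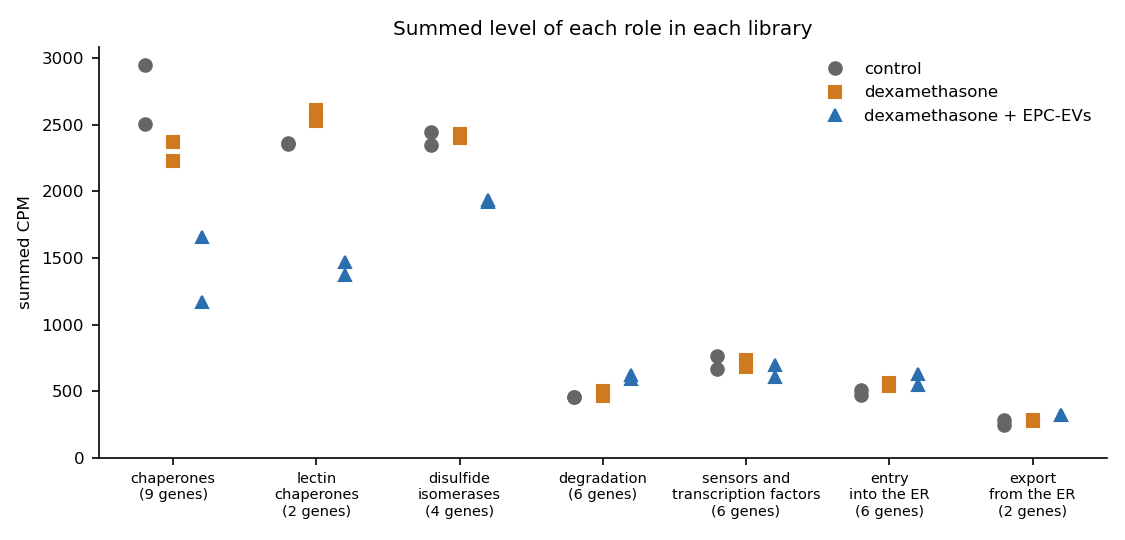
Summed CPM of the members of each role, from an axis at 0, with 1 point per library and the same symbols for the groups. The chaperone and lectin sums of the 2 dexamethasone + EPC-EVs libraries, at 1170 and 1659 and at 1467 and 1370 CPM, lie below those of the other 4 libraries.

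Genes with the ER stress element shown above did not share a direction. Calr, Hsp90b1 and Canx were lower with EPC-EVs, Pdia6 was higher, and Hspa5, Dnajc3, Creld2 and Syvn1 were not called. Only this spacing and orientation of CCAAT and CCACG was searched as the element. Herpud1, called higher, holds both parts in another arrangement and is not counted as holding the element. Its promoter has CCAAT on the other strand at 52 to 48 bases before the start and CCACG at 46 to 42. The direction of genes with other arrangements was not tested.

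**Figure D3:**
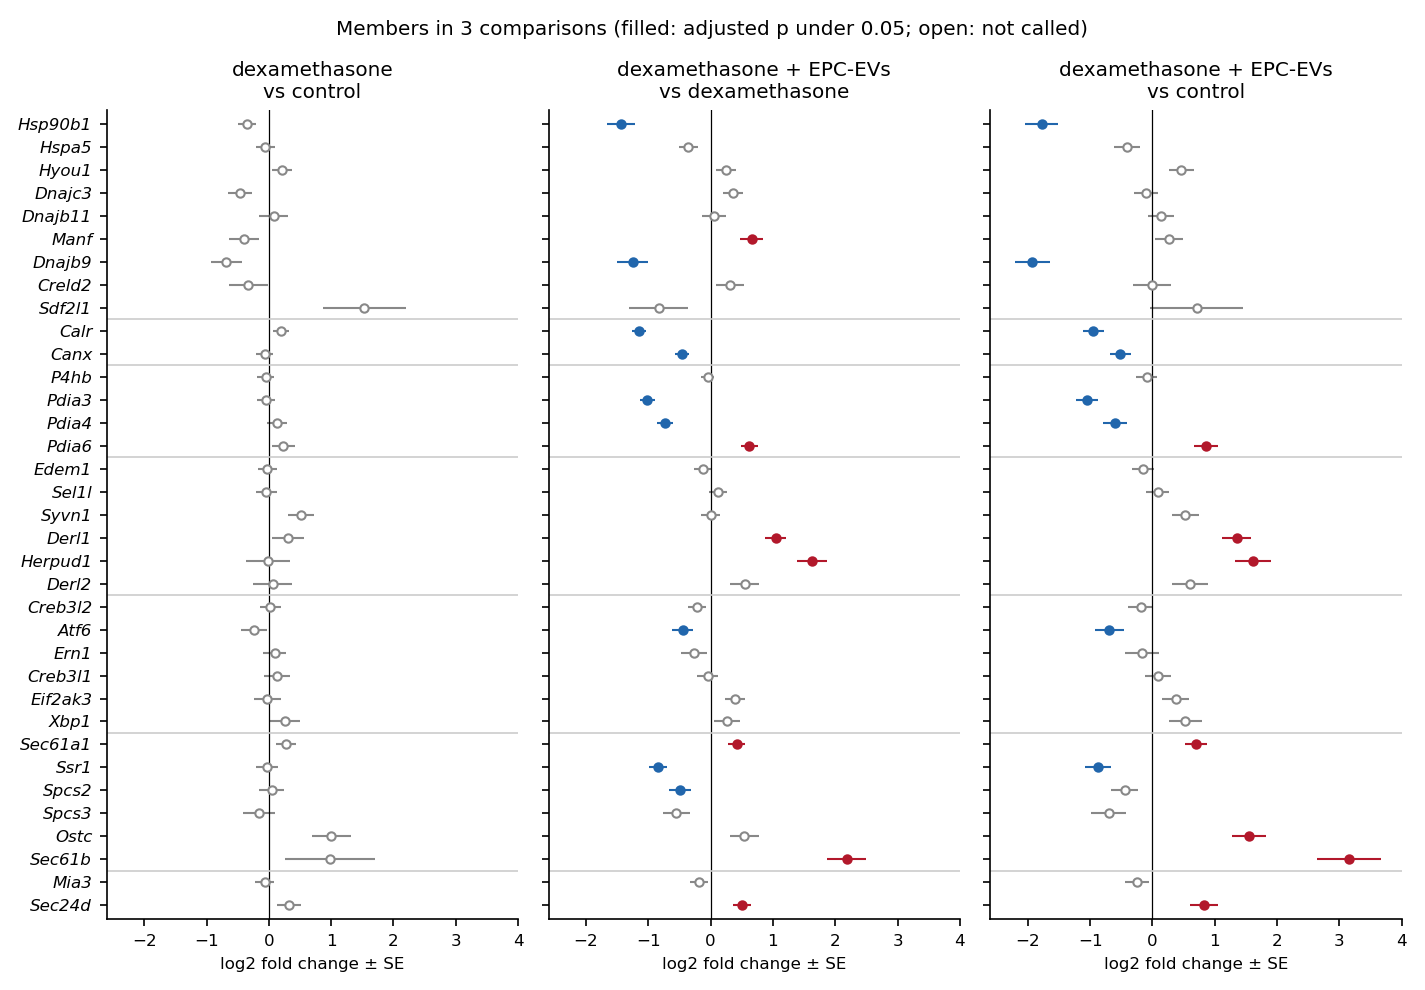
Log2 fold change ± SE of the 35 members in the 3 comparisons, in the order of the roles, with the group named first in the numerator. Filled points passed an adjusted p of 0.05 in the edgeR test, in red or blue (higher or lower), and open points did not. No point is filled for dexamethasone against control, 16 are filled for dexamethasone + EPC-EVs against dexamethasone and 15 against control.

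Against control, dexamethasone + EPC-EVs gave 15 called members, 7 higher and 8 lower. That is 20.0% and 22.9% of the members, beside 19.1% and 17.2% of the 13511 genes tested. Both vesicle comparisons use the same 2 vesicle libraries, so they are not independent and are set side by side only. The largest fall was that of Dnajb9, from 42.8 and 54.5 CPM to 12.9 and 13.5 CPM (log2 fold change -1.93, SE 0.281, adjusted p = 0.00151). Hsp90b1 gave -1.78 (SE 0.271, adjusted p = 0.00184), Pdia3 -1.06 and Calr -0.95. Sec61b gave 3.16 (SE 0.517, adjusted p = 0.00247) on 30 and 8 counts in control, Herpud1 1.62 and Derl1 1.35.

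Ostc stood at 19.4 and 16.9 CPM in control and 61.9 and 48.4 CPM with EPC-EVs, a log2 fold change of 1.55 (SE 0.272, adjusted p = 0.0032). The dexamethasone libraries, at 43.5 and 29.7 CPM, lay between these groups. Pdia6 at 0.86, Sec24d at 0.83 and Sec61a1 at 0.70 were also higher, and Canx at -0.51, Pdia4 at -0.60, Atf6 at -0.69 (adjusted p = 0.0499) and Ssr1 at -0.87 lower. Of these, Canx, Pdia4, Atf6, Sec61a1 and Sec24d lost the call without dexamethasone + EPC-EVs replicate 1 (adjusted p from 0.0866 to 0.261), Canx, Pdia4 and Ssr1 without dexamethasone + EPC-EVs replicate 2 (0.0681 to 0.284), and Canx, Pdia4 and Atf6 without control replicate 2 (0.0763 to 0.199). With a smooth trend on GC content and transcript length taken out of each library, the calls of Canx (0.23), Atf6 (-0.29), Sec61a1 (0.09) and Ssr1 (-0.28) were lost, while Dnajb9 (-0.97), Hsp90b1 (-1.06) and Herpud1 (1.11) were still called at smaller fold changes. By limma on log2(FPKM + 1) those of Canx, Pdia4, Atf6, Sec61a1 and Sec24d were lost, and without a filter that of Canx. In the edgeR test with all libraries Hspa5 at -0.41, Xbp1 at 0.53, Eif2ak3 at 0.37, Ern1 at -0.17 and Creb3l1 at 0.08 were not called.

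Base composition moved with these differences. Over the 35 members the log2 fold change of dexamethasone + EPC-EVs against dexamethasone correlated with the GC content of the longest annotated transcript at a Spearman rho of 0.42, and over 13544 genes at 0.49, as a description of points that share the same libraries. The same correlations, over members and over all genes, were 0.57 and 0.43 in dexamethasone against control, where no member was called. They were 0.60 and 0.57 in dexamethasone + EPC-EVs against control. GC content ran from 40.2% in Spcs3 to 59.5% in Creb3l1. When a smooth trend on transcript length and GC content was taken out of each library, 15 members were called, 7 higher and 8 lower, where 15.7% of all genes were called higher and 15.7% lower. The part of base composition in the results beyond this was not tested.

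Of the 16 calls 8 were also made after this removal, and the matching share of all called genes is not given here. Hsp90b1 then stood at a log2 fold change of -0.96, Calr at -1.29, Pdia3 at -0.94 and Pdia4 at -0.69. Pdia6 stood at 0.56, Herpud1 at 1.28, Derl1 at 0.96 and Sec61b at 1.57. Another 8 calls were lost. Dnajb9 went from -1.25 to -0.58, Ssr1 from -0.85 to -0.39, Atf6 from -0.45 to -0.15 and Sec61a1 from 0.42 to 0.01, and Canx changed sign, from -0.45 to 0.04. Smaller moves were those of Manf, from 0.66 to 0.45, Sec24d, from 0.50 to 0.33, and Spcs2, from -0.49 to -0.45. Another 7 appeared, Dnajc3 (0.78), Derl2 (0.97) and Ostc (0.73) higher, and Sdf2l1 (-1.49), P4hb (-0.45), Syvn1 (-0.59) and Creb3l1 (-0.90) lower. Creb3l1, the member richest in GC, thus went from -0.05 to -0.90.

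**Figure D4:**
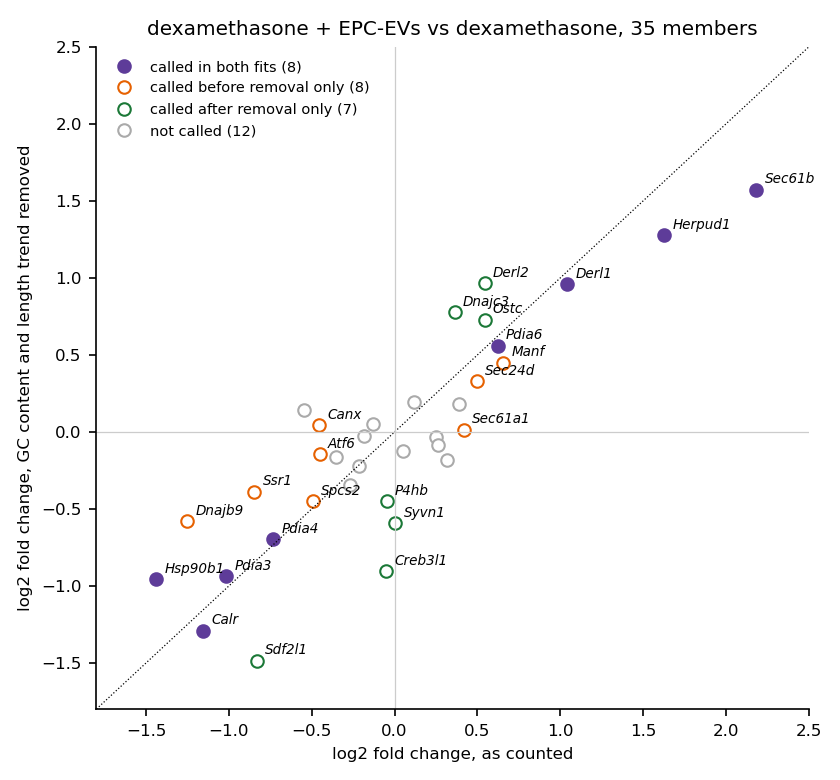
Log2 fold change of the 35 members in dexamethasone + EPC-EVs against dexamethasone as counted (horizontal axis) and with the trend on transcript length and GC content taken out (vertical axis), with the line of equal values dotted. Filled purple points were called in both fits (8), orange before the removal only (8), green after it only (7) and grey in neither (12).

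Over the 14 alternative fits of that comparison at the adjusted threshold, 7 members kept their call and direction, Hsp90b1, Calr, Pdia3 and Pdia4 lower and Herpud1, Derl1 and Sec61b higher. Their log2 fold changes ranged from -1.87 to -0.96 for Hsp90b1, -1.29 to -1.06 for Calr, -1.10 to -0.91 for Pdia3 and -0.83 to -0.61 for Pdia4. The ranges were 1.28 to 2.00 for Herpud1, 0.93 to 1.19 for Derl1 and 1.57 to 2.43 for Sec61b. The share of all genes that kept a call in every fit is not given here, so the 7 have no background beside them. At the study's fold threshold given above, Herpud1 and Sec61b passed and the other 5 did not. Some members not called with all libraries were called with 1 left out. Without dexamethasone + EPC-EVs replicate 2, Hspa5, Ern1 and Creb3l2 were called lower and Ostc higher, and without replicate 1 of that group Hyou1 and Dnajc3 were called higher. In GRCm38 the annotation places Hsp90b1 on chromosome 10 at 86690209 to 86705509, Calr on chromosome 8 at 84841850 to 84846934 and Pdia3 on chromosome 2 at 121413775 to 121438687. Pdia4 lies on chromosome 6 at 47796141 to 47813430, Herpud1 on chromosome 8 at 94386438 to 94395377, Derl1 on chromosome 15 at 57869502 to 57892448 and Sec61b on chromosome 4 at 47474658 to 47483242. The other strand at Hsp90b1 holds 1810014B01Rik, at Pdia3 Catsper2 and at Herpud1 Gm15890. The reads were aligned with a setting for stranded libraries, and the strand setting of the counting step is not given in the sources used here.

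Genes of the same pathway outside the 35 were taken from 6 lists with 118 genes in the table. Dexamethasone alone gave 0 calls among them by edgeR (11 at an unadjusted p under 0.05, beside the 10.9% of all genes given above, and 1 by DESeq2). With EPC-EVs added to dexamethasone 44 were higher and 22 lower. That is 37.3% and 18.6%, beside the 20.9% and 18.9% of all genes given above. The counts per list below stand beside the same 20.9% and 18.9%. The lists were chosen with earlier results known, and no test was made of them.

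Among other folding genes 9 of 24 were higher and 4 lower. The largest fall was that of Ero1a, the oxidase that recharges protein disulfide isomerases and is also induced by low oxygen. It stood at 445 and 464 CPM with dexamethasone and 40.2 and 51.6 CPM with EPC-EVs (log2 fold change -3.36, SE 0.157, adjusted p = 1.38e-07), and control held 512 and 418 CPM. Dnajc1, a J-domain protein of the ER membrane, gave -1.44, and Mogs, the first glucosidase to trim N-linked sugars, gave 1.45. Txndc11 gave 1.02. With the trend on GC content and length taken out, Mogs stood at 0.58 and its call was lost (adjusted p = 0.094).

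The PERK and ATF4 arm did not move as 1 unit, with 5 of 9 higher and 1 lower. Against control 1 was higher and 2 were lower, beside 19.1% and 17.2% of all genes tested. Atf4, the transcription factor translated when PERK or a related kinase acts, rose from 62.0 and 43.0 CPM to 192 and 258 CPM (log2 fold change 2.05, SE 0.202, adjusted p = 1.89e-05). Its target Chac1, an enzyme that degrades glutathione, stood at 4.95 and 2.5 CPM against 17.9 and 27.2 CPM, a log2 fold change of 2.55. Control held 11.9 and 3.98 CPM of Chac1, and against control it was not called (log2 fold change 1.45, adjusted p = 0.0583). Ddit3 (CHOP), a factor of stress-induced death, fell from 74.7 and 82.0 CPM to 44.5 and 36.7 CPM (log2 fold change -0.99, SE 0.183, adjusted p = 0.00125).

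Other degradation genes gave 8 of 18 higher and 2 lower. Among them was the ubiquitin ligase Rnf5 at a log2 fold change of 1.20, and on the other side the lectin Erlec1 at -0.96 and Ubxn4, an anchor for the p97 ATPase, at -0.55. With the GC content and length trend taken out all 3 calls were lost, at 0.85 for Rnf5, -0.27 for Erlec1 and -0.38 for Ubxn4. The Rnf5 call was also lost without dexamethasone replicate 1 (adjusted p = 0.0628), and that of Ubxn4 by limma and without dexamethasone replicate 1 (0.112), dexamethasone replicate 2 (0.0943) or dexamethasone + EPC-EVs replicate 1 (0.0503). Other entry genes split into 7 of 30 higher and 10 lower. The oligosaccharyltransferase subunit Krtcap2 gave 1.29 and Sec61g, the gamma subunit of the channel, 1.22, while Ost4, a further oligosaccharyltransferase subunit, gave -1.8 and the signal recognition particle protein Srp19 -1.61. The Sec61g call was lost without dexamethasone replicate 1 (adjusted p = 0.0501), dexamethasone replicate 2 (0.0721) or dexamethasone + EPC-EVs replicate 1 (0.123).

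Other export and retrieval genes gave 13 of 30 higher and 4 lower. Sec13, of the outer COPII coat, gave 1.20, and Kdelr2, the receptor that returns escaped ER chaperones, 1.15. Sec24a, a COPII adaptor related to the Sec24d gene described above, gave -1.27 and Arcn1, of the COPI coat, -0.75. Of 7 other regulators Atf6b, the relative of Atf6, gave 2.06, Creb3 1.19 and Mbtps2, the protease that completes the cutting of Atf6, -1.41. With the GC content and length trend taken out Atf6b stood at 1.14, Creb3 at 0.79, Mbtps2 at -0.69 and Arcn1 at -0.42, and each was still called. Against control 41 of the 118 were higher and 19 lower, 34.8% and 16.1%, beside 19.1% and 17.2% of all genes tested. There Atf4 gave 2.00, Ddit3 -1.32, Ero1a -3.39, Kdelr2 1.74 and Atf6b 2.91, and after that removal Atf4 stood at 1.16 and Atf6b at 1.48.

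**Figure D5:**
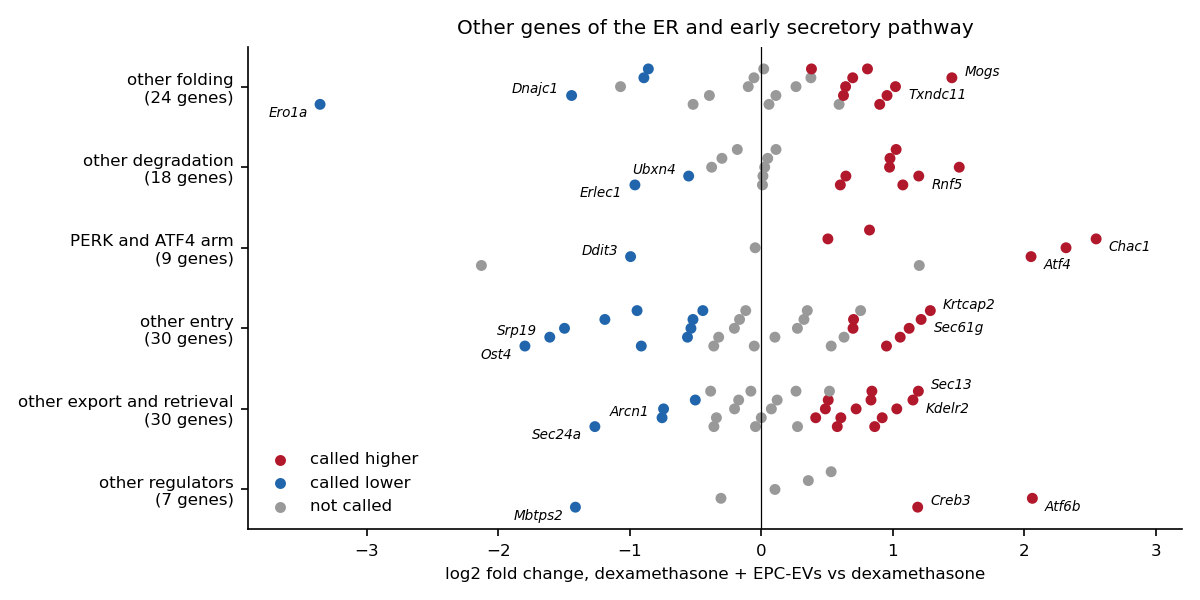
Log2 fold change of 118 other genes of the ER and early secretory pathway in dexamethasone + EPC-EVs against dexamethasone, 1 point per gene, in 6 lists (points are spread vertically for reading only). Red points were called higher and blue points lower in the edgeR test, and grey points were not called. Ero1a stands alone at the left, and Atf4, Chac1 and Atf6b lie at the right.

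Collagen, the main cargo of this system in osteoblasts, was higher in the same libraries. Col1a1 stood between 2205 and 2905 CPM in control and dexamethasone and at 8770 and 6914 CPM with EPC-EVs, and Col1a2 between 2302 and 2750 CPM against 11660 and 9351 CPM. All 12 osteoblast markers were in the table, and 10 were tested in dexamethasone + EPC-EVs against dexamethasone. Of these 3 were called higher (Col1a1, Col1a2 and Sparc) and 2 lower, beside 20.9% and 18.9% of all genes tested. The 2 lower were Spp1, at 10690 and 10570 CPM against 6104 and 4405 CPM, and Phex, at 20.8 and 22.1 CPM against 8.16 and 3.53 CPM. The osteocyte marker Dmp1 stood at 333 and 349 CPM against 138 and 26.1 CPM and was not called. Runx2, the master regulator of the lineage, lay between 152 and 202 CPM in every library, and the markers Alpl, Bglap and Ibsp were at or under 6.57 CPM in each. Of 12 endothelial markers 9 were in the table, and they summed to between 364 and 418 CPM in the 4 libraries without EPC-EVs and 292 and 244 CPM with them, nearly all of it Cd34. Cdh5, Emcn and Prom1 were under 1 CPM in all libraries. Of 12 blood cell markers 8 were in the table, and they summed to between 13.7 and 20.6 CPM in 5 libraries and to 55.4 CPM in dexamethasone + EPC-EVs replicate 2, where Csf1r gave 37.0 CPM. Their part in the members' values was not tested.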

How the data were processed

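RNA of 6 libraries, 2 per group, was sequenced as paired reads by the authors, who aligned them to GRCm38 with HISAT2, set for stranded reads, and counted them per gene with HTSeq (0.6.1 in the submitters' processing notes). The authors deposited these counts unscaled, with a column of FPKM per gene and library. The deposited FPKM is the count over gene length and library total (within 1% for 100% of genes). A transcript table was not used here.

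Each comparison used its own 4 libraries and the quasi-likelihood test of edgeR 4.0.16 (R 4.3.3) with TMM factors, filterByExpr and robust dispersions. P-values were adjusted by Benjamini and Hochberg's method over every gene tested, and calls were made under 0.05. The study's threshold for genes, a p under 0.05 with a log2 fold change beyond 1.5, was applied as an alternative. All 35 members passed the filter in each comparison. As alternatives, other scaling factors, DESeq2 1.42.0, no filter or another one, 1 fit of all 6 libraries, mitochondrially encoded genes left out, the replicate number as a block, a loess trend on GC content and transcript length removed (span 0.4), limma 3.58.1 on log2(FPKM + 1), and the loss of each library were tried. Annotation was GENCODE vM21.

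The members and lists were chosen with earlier results of these data known. Apart from Sec61a2 and Spcs1, the genes named from the other pathway lists are the 2 largest rises and 2 largest falls of each list. They were taken among called genes whose mean was 10 CPM or more. Which of them are given in full was chosen after their values were seen. Sec61a2 and Spcs1 were not called and lie outside this rule. A gene that this rule names is not reported here. The study calls its replicates biological, but the labels do not say that they are separate cultures, so p-values measure the spread between these libraries. Replicates differed by more than sampling noise (chi-square per degree of freedom 16.6, 7.17 and 20.1).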

Additional observations from a re-analysis of the deposited data

How the results depend on the processing

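For dexamethasone + EPC-EVs against dexamethasone the count of called members was 16 (39.8% of all genes), and 9 by limma on log2(FPKM + 1) (36.8%), 2 at the study's fold threshold (p under 0.05, log2 fold change beyond 1.5; 14.2%), and 10 to 19 with each library left out (22.3% to 34.8% of all genes). The lowest, 10, came without dexamethasone replicate 1 (26.0% of all genes) and also without dexamethasone replicate 2 (22.3%). Against control it was 15 (36.4%), and 5 at that fold threshold (20.7%), and 10 to 17 with each library left out (24.6% to 42.8%), with the lowest count without dexamethasone + EPC-EVs replicate 1. For dexamethasone against control it was 0, and 1 at the fold threshold (1.41%), and 0 to 8 with each library left out, the 8 without control replicate 1 (16.0%). Other pathway genes called numbered 0 for dexamethasone against control, 1 by DESeq2, 1 without a filter and 0 to 27 with each library left out (27 without control replicate 1), and 66 for dexamethasone + EPC-EVs against dexamethasone, with 42 to 66 over the left-out libraries (42 without dexamethasone replicate 2). Against control the median log2 fold change of all genes was 0.02, but 0.13 by DESeq2, 0.17 without a filter and 0.15 without control replicate 1. The medians by DESeq2 and without a filter are over 20615 genes, against 13511 in the main fit. The cause of these shifts was not tested.

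Signs of small fold changes turned. With the GC content and length trend removed, Hspa5 stood at 0.087 and Creb3l1 at -0.30 in dexamethasone against control, Canx at 0.045, Xbp1 at -0.088 and Spcs3 at 0.14 in dexamethasone + EPC-EVs against dexamethasone, and Canx at 0.23, Syvn1 at -0.35, Creb3l1 at -1.21 and Spcs3 at 0.28 in dexamethasone + EPC-EVs against control. By limma, Hspa5 stood at 0.017 and Eif2ak3 at 0.054 in dexamethasone against control. With each library left out, the log2 fold changes in dexamethasone against control ran from -0.16 to 0.065 for Hspa5, -0.48 to 0.071 for Atf6, -0.060 to 0.29 for Ern1, -0.14 to 0.13 for Eif2ak3 and -0.034 to 0.28 for Creb3l1, in dexamethasone + EPC-EVs against dexamethasone from -0.65 to 0.058 for Ern1, -0.012 to 0.53 for Xbp1 and -0.19 to 0.13 for Creb3l1, and against control from -0.55 to 0.16 for Ern1. Of these, Canx was a call that was lost, and Creb3l1 became a call against control. With the GC content and length trend removed, Dnajc3 also changed sign and became a call against control.

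Replicate numbers are shared between groups, and the labels do not say whether they pair the libraries. Deviations of same-numbered libraries correlated at 0.06, 0.01 and 0.01 over 13582 genes, which does not settle it. With the replicate number as a block, 18, 15 and 0 members were called in the comparisons in the order above, beside 39.6%, 34.6% and 0.334% of all genes, and 67 other pathway genes in dexamethasone + EPC-EVs against dexamethasone. In that comparison the block added Hspa5 (adjusted p = 0.0298) and Ostc (0.0412) to the called members. Sec61b had 8 to 48 counts outside the vesicle group, which limits the precision of its fold change.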
